A study of Mus musculus with 18 samples.

Results

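The antibody-bound circRNA pool of the mouse cortex was followed over a stroke time course, using only the immunoprecipitated (IP) fraction of each sample. CircRNAs are RNAs closed into a ring by back-splicing, which lack free ends and are abundant in brain. N6-methyladenosine (m6A) is a methyl mark that writer enzymes place on RNA, erasers remove and reader proteins bind. An anti-m6A antibody pulls down the RNA that carries the mark, so the IP signal of a circRNA depends both on how much of it there is and on how much of it is bound. The IP signal alone does not separate these, nor can it tell fewer cells of a type from less RNA per cell.

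The 9 IP samples, of 18 in the series, came from 10 weeks old C57BL/6J mice, 3 each from the cortex of sham-operated mice, from the cortex around the infarct 3 days after distal middle cerebral artery occlusion (MCAO), and from the same region 7 days after it. Sham mice had the surgery without the occlusion, and the labels give no day for them. The samples are called biological replicates, without a statement that each came from its own animal. RNA of the IP fraction was treated with RNase R, which degrades linear RNA, labeled with Cy5 and hybridized to an array together with the unbound fraction in Cy3, whose values were not used here. The pool was taken as the circRNA probes that the scanner software marked well above background in Cy5 on at least 3 of the 9 arrays, which 12422 of 14236 circRNA probes were. Of the 1814 probes under this filter, 972 were well above background on no array, and 9581 probes were so on all 9. The median intensity of the 381 probes seen on 2 arrays was 59.8 and that of the 354 seen on 3 arrays was 60.5, against 77 over the whole pool.

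The deposited files name the probes by design codes. Circular transcript and host gene names could be given to 55 probes, those of the 56 circRNAs listed in the study's methylation comparisons, and the other probes are given by their codes. Of 20 markers of neurons, glia and vessels, only Mbp, the myelin basic protein, had an mRNA probe, at an IP intensity of 56.1 to 90.9, so that the tissue label could not be checked here. The sham arrays lay on one slide and the 3d and 7d arrays on another. Slide and surgery can therefore not be told apart in either comparison with sham, while 7d against 3d was a comparison within one slide, with the 3d arrays in one row and the 7d arrays in the other, so that row and time point cannot be told apart.

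The IP signal was dim. The median raw intensity of a circRNA spot was between 36.5 and 50 per array, or 2 to 2.43 times the median local background, and no circRNA spot was saturated. Intensities below are background-corrected with an offset of 50, before the arrays are scaled, so the fold changes of dim probes are understated. After scaling, the lowest intensity marked well above background was 67.4 on 7d replicate 3 and between 51.1 and 57 on the other arrays. Between 11039 and 12323 probes were well above background on an array. The mean was 11433 ± 415 in sham, 11997 ± 554 in 3d and 11426 ± 235 in 7d (SD, n = 3 each). No pair of groups differed in this count beyond the spread, with P = 0.3 for 3d against sham, P = 1 for 7d against sham and P = 0.2 for 7d against 3d in a two-sided exact permutation test that cannot go below 0.1 with 3 arrays against 3. Arrays of one group correlated at r = 0.968 to 0.994 across probes, and arrays of different groups at 0.953 to 0.989.

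Spike-in RNA, added to the total RNA before the pull-down, served as the first scale. The 10 spike-in probes behind the authors' normalization had a log2 level of 10.52, 10.56 and 10.54 in sham, 10.33, 10.45 and 10.52 in 3d, and 10.43, 10.41 and 10.17 in 7d. They were lowest in 7d replicate 3, and at 2 decimals no array after MCAO stood above a sham array. The spread over arrays was 0.38 for these probes and 0.35 for all 102 spike-in probes, against 0.15 for the circRNA median before scaling.

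**Figure D1:**
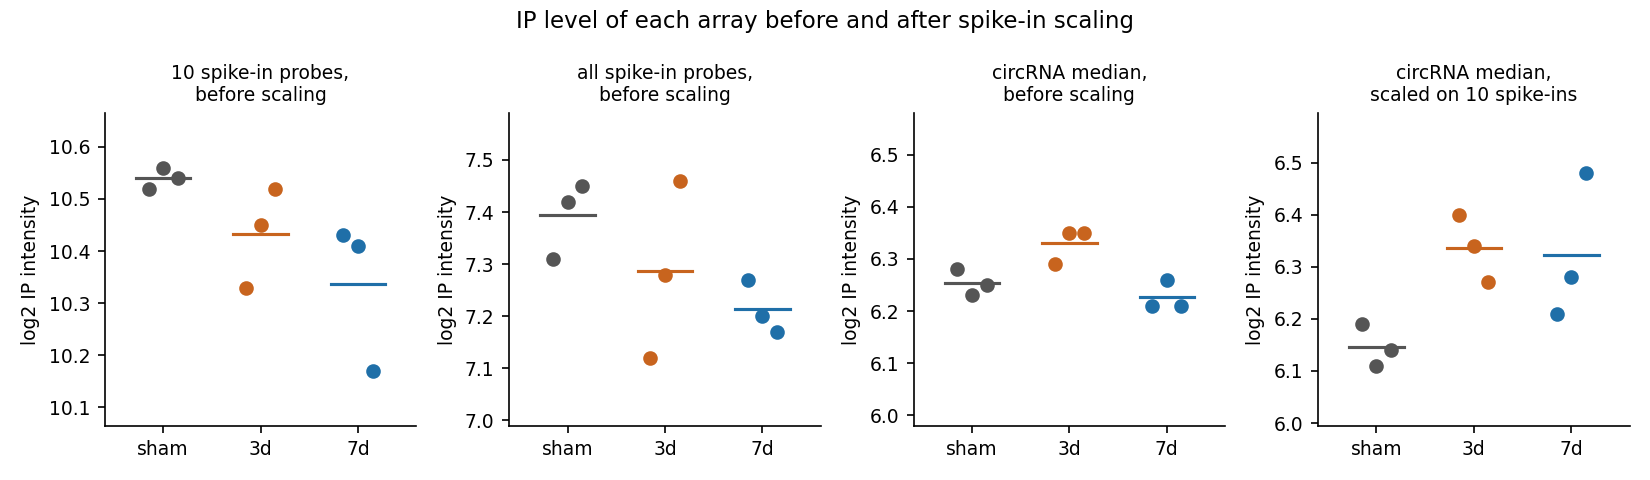
Each point is 1 array and each line the group mean, in log2 IP intensity, with every panel spanning the same range. The 10 spike-in probes fell from sham to 7d while the circRNA median before scaling stayed within 0.15, and after scaling the sham arrays lay below all others.

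With the 10 spike-in probes as the scale, the circRNA median of an array was 6.15 ± 0.0421 in sham, 6.34 ± 0.0646 in 3d and 6.32 ± 0.136 in 7d (log2, SD, n = 3 each). The 3d arrays at 6.40, 6.34 and 6.27 and the 7d arrays at 6.21, 6.28 and 6.48 all lay above the sham arrays at 6.19, 6.11 and 6.14. The difference from sham was 0.19 at 3d and 0.18 at 7d, each with P = 0.1 in the exact permutation test, the smallest value it can give. On the scanner's processed signal it was 0.052 (exact P = 0.9) and 0.066 (exact P = 0.8), on the deposited values 0.049 (exact P = 0.9) and 0.083 (exact P = 0.5), and without background correction 0.37 and 0.31 (exact P = 0.1 each). The 7d and 3d medians differed by -0.011 (exact P = 1). With all spike-in probes as the scale the differences from sham were 0.19 and 0.16, the groups overlapped, and P was 0.2 for both by the exact test. Before any scaling the difference was 0.081 at 3d (exact P = 0.1) and -0.027 at 7d (exact P = 0.3). On the array median no such difference can be seen, since it sets the medians equal.

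The 3 groups were first compared in one test. A moderated F-test of limma over all 9 arrays, with an adjusted P under 0.05 and a largest fold above 1.5, called 300 of 12422 probes (2.42%). This count rested on single arrays. It was 1 without 7d replicate 3, 108 without 7d replicate 1, 153 without 7d replicate 2, 196 without 3d replicate 2 and 1076 without 3d replicate 3, and between 216 and 449 without any other array. The 1 probe called in every case was ASCRP4006633. Before adjustment the same F-test and fold passed 598 probes with all arrays and 505 without 7d replicate 3. With all spike-in probes as the scale 328 probes were called and with the array median 357, and 217 probes were called on all 3 scales.

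Among the 300 probes the commonest order of the group means was 7d lowest, sham between and 3d highest, which 150 probes had (50%, against 7.49% of all tested). A further 69 probes (23%, against 9.53%) were lowest at 3d and highest in sham, and 38 (12.7%, against 6.14%) fell in steps from sham over 3d to 7d. Another 35 (11.7%, against 31.3%) were lowest in sham and highest at 3d. The steady rise from sham to 7d was seen in 6 of the called probes and in 5109 of all tested (41.1%). These orders are on the scale of the 10 spike-in probes, where the median probe lay 0.16 above sham in log2 at both times. On the array median it lay at -0.031 at 3d and -0.015 at 7d. The shares of all tested probes with sham lowest thus depend on the scale, and orders were not counted on the other.

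**Figure D2:**
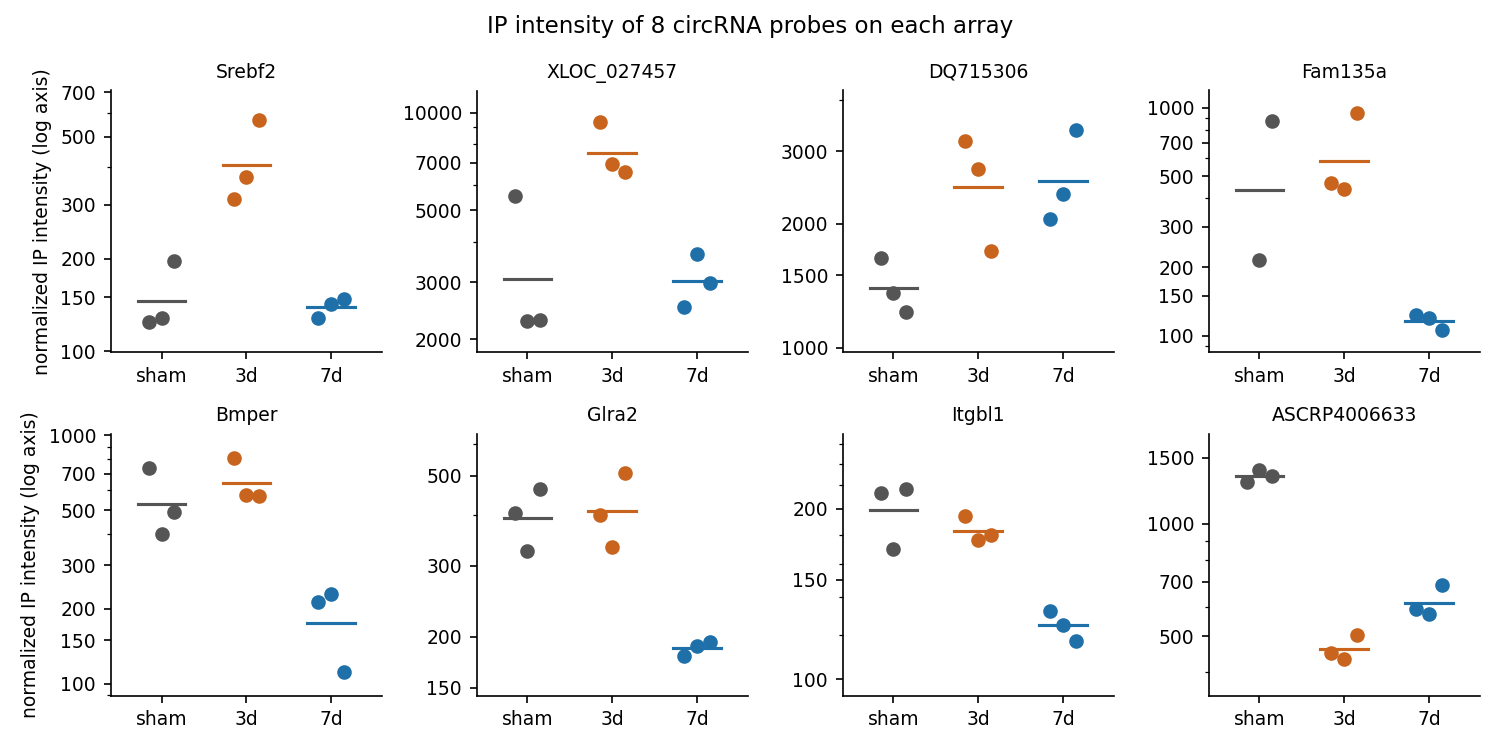
Normalized IP intensity of 8 probes on each array (points, log axis) with the mean of the log2 values (lines). Srebf2 and XLOC_027457 were high in 3d, Fam135a, Bmper, Glra2 and Itgbl1 were low in 7d, and ASCRP4006633 was high in sham. Fam135a lacks sham replicate 1, a marked spot that was left out.

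Between 3 and 7 days most probes that changed lost IP signal. In 7d against 3d, 294 probes (2.37%) passed a fold above 1.5 and an unadjusted P under 0.05 in limma, of which 286 were lower (2.3%) and 8 higher (0.0644%). With an adjusted P, 177 were called (1.42%), 175 lower and 2 higher. Lower calls were the majority under each scaling, with 293 on all spike-in probes and 260 on the array median, and 257 were shared by these 3. Quantile normalization gave 230 lower and 23 higher. The scanner's processed signal gave 917 lower and 242 higher, sharing 261 of the 286 lower calls and 2 of the 8 higher ones. With 1 array left out they numbered 256 to 375, and 203 were called in every case. The higher calls numbered 3 without 7d replicate 3, 13 without 7d replicate 1 and 28 without 3d replicate 3. A fit on the 6 arrays of this slide alone gave 298 lower and 8 higher. All 286 were among the brighter probes, 226 in the brightest and 60 in the next of 5 bins of equal size by mean IP level. The 3 dimmer bins had mean intensities of 57.2 to 86.7, where the offset leaves little room for a 1.5-fold fall. The lack of lower calls there therefore does not show that dim probes kept their signal. Without the offset 1268 probes were called lower and 71 higher, and their brightness was not examined.

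Named host genes among the lower probes were of several kinds. mmu_circRNA_19765 of Fam135a on chromosome 1, an exonic circRNA, had intensities of 467, 442 and 951 in 3d and 123, 120 and 106 in 7d. Its 2 sham arrays with a value stood at 215 and 875, overlapping 3d, and the third was left out as a marked spot. The log2 difference between 7d and 3d was -2.32 (SE 0.44, adjusted P = 0.0254). Bmper encodes a secreted regulator of bone morphogenetic protein signaling. Its mmu_circRNA_43882 on chromosome 9 had intensities of 737, 402 and 493 in sham, 809, 575 and 567 in 3d, and 214, 229 and 112 in 7d. All 7d arrays lay below all others, with a log2 difference of -1.86 from 3d (SE 0.28, adjusted P = 0.00844) and -1.58 from sham (SE 0.28, adjusted P = 0.0387).

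Glra2 encodes a subunit of the glycine receptor, an inhibitory chloride channel. Its mmu_circRNA_45965 on chromosome X read 405, 325 and 463 in sham, 401, 334 and 507 in 3d and 179, 190 and 194 in 7d. Sham and 3d overlapped fully, and the 7d arrays were tightly grouped below them. The log2 difference was -1.12 from 3d (SE 0.16, adjusted P = 0.00807) and -1.07 from sham (SE 0.16, adjusted P = 0.0237). Itgbl1 encodes an integrin beta-like protein, and its mmu_circRNA_28128 on chromosome 14 went from 213, 170 and 217 in sham and 194, 176 and 180 in 3d to 132, 125 and 117 in 7d. It was lower at 7d than in sham by a log2 difference of -0.67 (SE 0.11, adjusted P = 0.0282), and than in 3d by -0.56 (SE 0.11, adjusted P = 0.0232), a fold of 1.47 that missed the fold threshold.

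The 3 largest falls among probes whose 3d and 7d arrays did not overlap were of more than 7-fold and had no name. ASCRP4011427 had intensities of 1040, 1080 and 4730 in 3d and 236, 293 and 204 in 7d, a log2 difference of -2.85 (SE 0.54, adjusted P = 0.0213), while its sham arrays at 704, 499 and 1620 overlapped 3d. Without 3d replicate 3 the difference was -2.13. ASCRP4009892 read 3230, 2250 and 5360 in sham, 5670, 5640 and 9720 in 3d and 911, 1810 and 516 in 7d, with a log2 difference between 7d and 3d of -2.84 (SE 0.42, adjusted P = 0.00815). ASCRP4005148 had the same difference of -2.84 (SE 0.38, adjusted P = 0.00807), with 694, 587 and 1370 in 3d and 120, 133 and 95.6 in 7d. In each of these probes 3d replicate 3 was the brightest array of all 9 and 7d replicate 3 the dimmest. A much smaller error was that of ASCRP4013068, which read 667, 574 and 650 in sham, 642, 575 and 645 in 3d and 359, 331 and 326 in 7d. It did not move at 3d beyond its error (log2 difference -0.022, SE 0.092) and was lower at 7d than at 3d by -0.87 (SE 0.092, adjusted P = 0.00745).

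The largest of the 8 higher probes was ASCRP4012504, at 439, 473 and 499 in sham, 266, 313 and 359 in 3d and 501, 529 and 671 in 7d. Its 3d arrays were the lowest, and the log2 difference between 7d and 3d was 0.86 (SE 0.13, adjusted P = 0.00975). ASCRP4010157 came next with 0.69 and did not pass adjustment (SE 0.18, adjusted P = 0.114). ASCRP4001539, with 0.66, did (SE 0.11, adjusted P = 0.0135).

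At 3 days the signal moved both ways. In 3d against sham 428 probes (3.45%) were called, 251 higher (2.02%) and 177 lower (1.42%), and with an adjusted P 143 were (1.15%), 57 higher and 86 lower. The split depended on the scale. All spike-in probes gave 212 higher and 173 lower, the array median gave 67 higher and 419 lower, and the share of higher calls went from 58.6% to 13.8%. Quantile normalization gave 158 and 109. Of the 251 higher calls 67 remained on all 3 scales, and of the 177 lower calls 173 did. Leaving out 1 array moved the higher calls to 120 without sham replicate 2, 154 without 3d replicate 1, 492 without sham replicate 1 and 523 without 3d replicate 3. The lower calls became 75 without 3d replicate 1, 269 without sham replicate 1 and 419 without 3d replicate 3. Of all calls 72 higher and 70 lower passed whichever array was left out. The scanner's own processed signal turned the majority, with 783 higher and 1019 lower, while 2208 were higher and 403 lower without the offset, and 1503 and 292 without background correction.

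**Figure D3:**
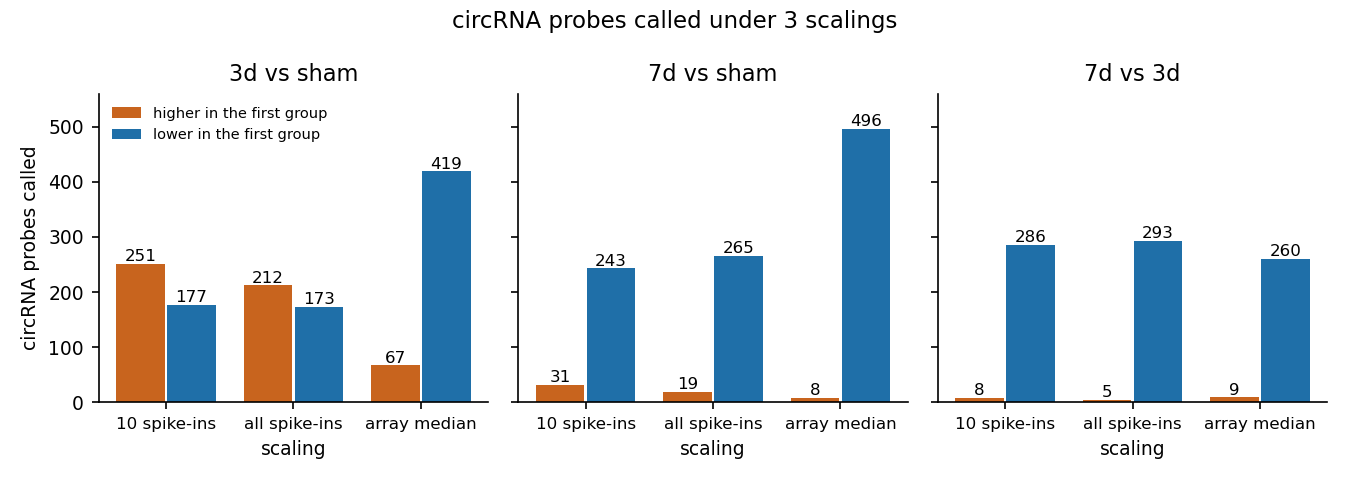
Bars give the probes called higher and lower in each comparison (fold above 1.5 and unadjusted P under 0.05, limma, 3 arrays a group) under 3 scalings. The lower calls of 7d vs 3d were 286, 293 and 260, while the higher calls of 3d vs sham went from 251 to 67 on the array median.

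Srebf2, a transcription factor that drives cholesterol synthesis, was host to the largest named rise past adjustment. mmu_circRNA_28863, an exonic circRNA on chromosome 15, read 124, 128 and 197 in sham, 313, 371 and 567 in 3d and 128, 143 and 148 in 7d. No 3d array overlapped another group, and 7d was back in the sham range. The log2 difference at 3d from sham was 1.46 (SE 0.22, adjusted P = 0.018), and it was 1.28 on the array median. At 7d it was -0.067 from sham (SE 0.22) and -1.53 from 3d (SE 0.22, adjusted P = 0.00807). Of the unnamed probes ASCRP4004748 rose by 1.5 (SE 0.24, adjusted P = 0.0208), from 95.8, 105 and 110 in sham to 229, 235 and 462 in 3d, and ASCRP4009693 by 1.48 (SE 0.23, adjusted P = 0.0208), from 183, 132 and 159 to 383, 345 and 626. Both were lower again at 7d than at 3d, by -1.20 (SE 0.24, adjusted P = 0.0305) and -1.62 (SE 0.23, adjusted P = 0.00815).

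Brighter intronic circRNAs were called higher but missed adjustment. XLOC_027457 hosts mmu_circRNA_19555 on chromosome X, at 5520, 2280 and 2300 in sham, 9360, 6920 and 6570 in 3d and 2520, 3670 and 2980 in 7d. The 3d arrays lay above all others, with a log2 difference of 1.29 from sham (SE 0.30, adjusted P = 0.0505). Malat1, a long nuclear noncoding RNA, hosts mmu_circRNA_009696 on chromosome 19, which read 3650, 1210 and 980 in sham and 8150, 5540 and 3350 in 3d. Sham replicate 1 lay above 3d replicate 3, and the log2 difference of 1.71 had an adjusted P of 0.0597. Its 7d arrays, at 2580, 3400 and 2750, overlapped both. Cmss1, one of the brightest probes of the pool with mmu_circRNA_005252, read 18000, 11800 and 10300 in sham and 23900, 18800 and 19500 in 3d. The log2 difference was 0.67 (SE 0.19, adjusted P = 0.0762), and 0.48 on the array median, under the fold threshold.

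The lower side at 3 days held ASCRP4006633, the probe with the smallest P of the F-test (adjusted P = 0.000172). It read 1290, 1390 and 1340 in sham, 451, 433 and 504 in 3d and 590, 573 and 685 in 7d. The groups did not overlap, and the fold below sham was 2.9 at 3d (log2 difference -1.54, SE 0.096, adjusted P = 5.92e-05) and 2.18 at 7d (log2 difference -1.12, SE 0.096, adjusted P = 0.00162). ASCRP4005397 fell alike at both times, from 617, 645 and 648 in sham to 368, 368 and 359 in 3d and 414, 336 and 363 in 7d, with log2 differences of -0.80 (SE 0.091, adjusted P = 0.00716) and -0.78 (SE 0.091, adjusted P = 0.0113). ASCRP4009555 was lower at 3d by a log2 difference of -1.46 (SE 0.24, adjusted P = 0.0241). At 7d it was measured on only 2 arrays after a marked spot was left out of 7d replicate 1. ASCRP4013392 was called lower at 3d by -1.31 but missed adjustment there (SE 0.31, adjusted P = 0.0541), and was lower at 7d by -1.49 (SE 0.31, adjusted P = 0.0489).

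At 7 days most calls were lower than in sham. In 7d against sham 274 probes (2.21%) were called, 243 lower (1.96%) and 31 higher (0.25%), and with an adjusted P 86 were (0.692%), 79 lower and 7 higher. All spike-in probes gave 265 lower and 19 higher, the array median 496 lower and 8 higher, and quantile normalization 128 lower and 48 higher. On the first 3 scales 242 of the 243 lower calls remained, and 8 of the 31 higher ones. With 1 array left out the lower calls numbered 167 to 298. The higher calls numbered 8 without 7d replicate 3, 20 without sham replicate 2 or without sham replicate 3, 118 without 7d replicate 1 and 177 without sham replicate 1. Of all calls 129 lower and 6 higher passed whichever array was left out. Without the offset the majority turned, to 963 higher and 643 lower, and likewise without background correction, to 942 and 384.

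ASCRP4012340 had the largest fall from sham. It read 1250, 701 and 1550 in sham, 1180, 935 and 1900 in 3d and 177, 255 and 153 in 7d, so that sham and 3d overlapped and 7d lay far below both. The log2 difference was -2.54 from sham (SE 0.31, adjusted P = 0.015) and -2.75 from 3d (SE 0.31, adjusted P = 0.00745). ASCRP4005614 and ASCRP4009828 were also lowest at 7d, with -2.46 (SE 0.38, adjusted P = 0.0271) and -2.39 (SE 0.32, adjusted P = 0.0192) from sham. ASCRP4001381 was called in both directions: it was higher at 3d than in sham by 0.61 (SE 0.22), which did not pass adjustment (adjusted P = 0.112), and lower at 7d by -1.44 (SE 0.22, adjusted P = 0.0271). Its arrays read 607, 312 and 606 in sham, 820, 685 and 729 in 3d and 185, 205 and 152 in 7d.

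The largest rise over sham at 7 days was that of ASCRP4008249, from 100, 87 and 85 in sham to 136, 181 and 257 in 7d, with a log2 difference of 1.03 (SE 0.21, adjusted P = 0.0486). The 3d arrays, at 240, 180 and 151, overlapped those of 7d. DQ715306 hosts mmu_circRNA_20066, which read 1650, 1360 and 1220 in sham, 3180, 2720 and 1720 in 3d and 2050, 2360 and 3370 in 7d. Every array after MCAO lay above every sham array, with log2 differences of 0.82 (SE 0.23) at 3d and 0.86 (SE 0.23) at 7d, whose adjusted P values were 0.0751 and 0.0804. ASCRP4006406 was called higher by 0.88 at 7d and also missed adjustment (SE 0.26, adjusted P = 0.0873).

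**Figure D4:**
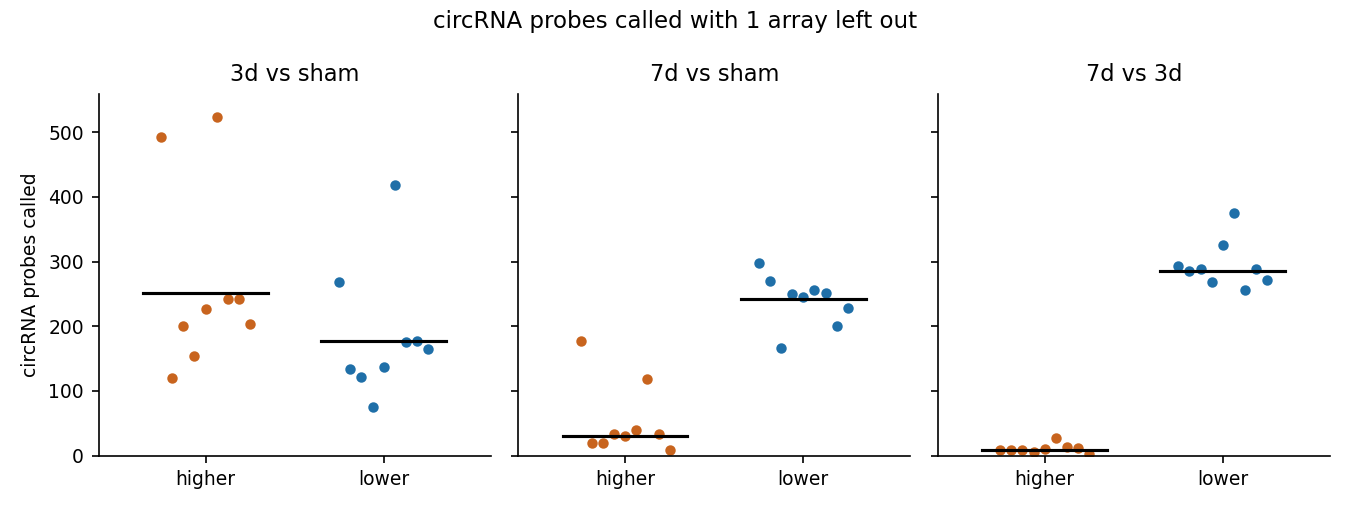
Each point is the number of probes called higher or lower with 1 of the 9 arrays left out, and the black line is the number with all arrays. The higher calls in 3d vs sham moved between 120 and 523, while the lower calls in 7d vs 3d stayed between 256 and 375.

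Both comparisons with sham were lower in the brightest probes than in dim ones, on either scale, while the sign in the dim probes followed the scale. On the 10 spike-in probes the median log2 difference of the dimmest of the 5 bins, with mean intensities of 57.2 to 64.9, was 0.16 at 3d and 0.21 at 7d, and on the array median -0.022 and 0.032. In the brightest bin, above 147, it was -0.087 and -0.15. Over all probes it was 0.16 at both times, which the array median took to -0.031 and -0.015, and the brightest bin then stood at -0.27 and -0.32. Between 7d and 3d, within one slide, the medians of the bins lay between -0.038 and 0.045. The arrays of the 2 groups did not overlap in 48.4% of probes for 3d against sham, in 45.4% for 7d against sham and in 10.2% for 7d against 3d. On the array median these shares were 21.9%, 30.9% and 20.5%.

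**Figure D5:**
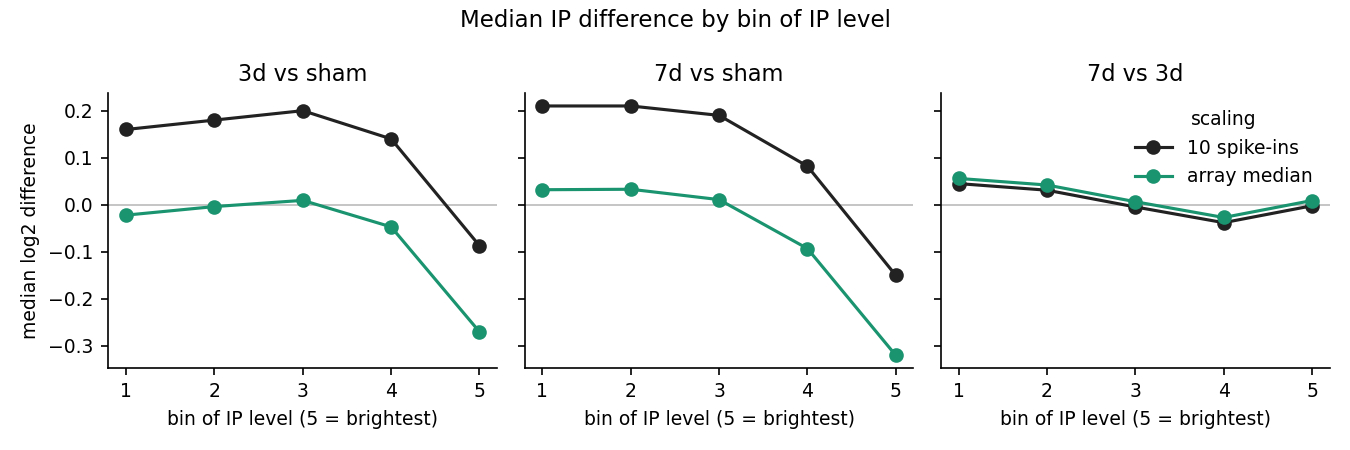
Median log2 difference over the probes of 5 bins of mean IP level, 2484 or 2485 probes a bin, under scaling on the 10 spike-in probes and on the array median. Both comparisons with sham drop in the brightest bin, to -0.087 and -0.15 on the spike-in probes, and 7d vs 3d stays between -0.038 and 0.045.

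A count of detection does not use either scale, but it does depend on the brightness and background of each array. Before scaling the circRNA median differed by -0.11 between 7d and 3d, without overlap (exact P = 0.1). The lowest intensity marked well above background was highest on 7d replicate 3, at 67.4. Whether this shaped the counts was not tested. Of the 14236 circRNA probes on the array, 147 were well above background on all 3 arrays of 3d and none of 7d, against 18 in the opposite direction. For 3d against sham there were 75 with 3d only and 14 with sham only, and for 7d against sham 40 with 7d only and 58 with sham only. Of these probes 29 were marked on all 3d arrays and on none of the other 6.

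Appl1 was one of them. It encodes an adaptor protein of early endosomes, and its exonic mmu_circRNA_27268 on chromosome 14 was 1 of the circRNAs that the study took to MeRIP-qPCR. It was well above background on all 3d arrays, at 69.9, 63.0 and 65.4, and on no array of sham or 7d. The log2 difference between 3d and sham was 0.29 on the spike-in scale (SE 0.093, adjusted P = 0.0942) and 0.10 on the array median, under the fold threshold on both. It was called under other treatments of the background, with 1.08 without the offset, 0.69 without background correction and 2.09 on the scanner's processed signal, where the adjusted P was 0.0415, 0.00878 and 0.0243. The size of the difference thus depended on the background treatment. The probe passed the detection filter only through the 3d arrays, the group where it is high. These calls are therefore no support for a rise at 3d. Clasp1, which encodes a protein that binds growing microtubule ends, hosts mmu_circRNA_20673 on chromosome 1, another of these circRNAs. It read 60.9, 57.6 and 58.1 in sham, 90.9, 80.2 and 69.2 in 3d and 63.6, 69.8 and 83.6 in 7d. All 3d arrays lay above sham, with a log2 difference of 0.44 that missed the fold threshold (SE 0.12, adjusted P = 0.0751). Ptp4a2 was marked on the same arrays as Appl1, with a log2 difference between 3d and sham of 0.26 on the spike-in scale and 0.069 on the array median. Orc3, a subunit of the origin recognition complex, was marked on all 7d and no sham arrays, with a difference of 0.38 and 0.21. Neither was called. Ptp4a2 passed the detection filter only through the 3d arrays, and Orc3 only through arrays after MCAO. The differences of Ptp4a2 and Orc3 from sham are therefore no support for a rise.

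The 55 named probes were chosen by the study on the same samples, so their counts are no independent evidence of a direction. The study's lists are of methylation level, the IP share of the signal, and several went the other way. Srebf2, Fam135a, Glra2, Scn2a1 and Kat6a were listed as hypermethylated in 7d against 3d, where their IP signal was called lower. Bmper and XLOC_027457 were listed as hypomethylated there. Against sham, Itgbl1 was listed as hypermethylated at 7d but called lower, and Mid1 as hypomethylated at 3d but called higher. All 55 passed the detection filter, 31 of them on all 9 arrays, and 6 passed the F-test, as did 2.42% of all probes. At 3d 7 were higher than sham and 0 lower, against 2.02% and 1.42% of all probes. At 7d 1 was higher, that of DQ715306, and 6 were lower, against 0.25% and 1.96%. In 7d against 3d 0 were higher and 7 lower, against 0.0644% and 2.3%. By an adjusted P the higher calls at 3d left Srebf2 and Mid1, an E3 ubiquitin ligase bound to microtubules, whose log2 difference was 0.67 (adjusted P = 0.0426). On the array median that of Mid1 was 0.49, under the fold threshold. Mid1 also did not pass the F-test (adjusted P = 0.0535). The median log2 difference of the 55 was 0.16 at 3d and 0.12 at 7d, close to the 0.16 and 0.16 of all tested probes.

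By the known roles of the host genes, calls were spread over several groups, each too small to be set against the 2.02% of all probes called higher at 3d or the 1.96% called lower at 7d. Among 7 probes of synapse and excitability genes, Glra2 was lower at 7d, and Scn2a1, a voltage-gated sodium channel, was called higher at 3d (0.81, adjusted P = 0.119) and lower in 7d against 3d (-1.20, adjusted P = 0.0958). Anks1b, Rims1, Calm3, Arhgap32 and Adgrb3 were not called, and the median of the group was 0.25 at 3d and 0.17 at 7d. Of 8 probes of endocytosis and cytoskeleton genes, which include Itsn2, Clasp1 and Appl1, 0 were called in any comparison. Among 8 of transcription and chromatin genes, Srebf2 was higher at 3d, and Kat6a, a histone acetyltransferase, was called lower at 7d than in sham (-0.65, adjusted P = 0.0956) and than in 3d (-0.74, adjusted P = 0.135). Of 4 ubiquitin and proteasome genes, Mid1 was called higher at 3d on the spike-in scale. Uba6, a ubiquitin-activating enzyme, was called lower at 7d (-0.73, adjusted P = 0.0935).

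Of 9 probes of RNA metabolism and translation genes 3 were called higher at 3d, those of Malat1, Cmss1 and DQ715306, and 0 were lower, where 2.02% and 1.42% of all probes were. All 3 were listed by the study as hypermethylated in 3d against sham on these samples. Their count is therefore no support for a rise of the group. The median of the 9 probes was 0.23 at 3d and 0.30 at 7d, the highest of the groups at 7d. Of these probes, Trmt44, Larp4b and Cnot6 passed the detection filter only through arrays after MCAO. The median is therefore no support for a rise either. Rn45s, the ribosomal RNA precursor, had a log2 difference of 0.57 at 3d on 2 of its 3 arrays (adjusted P = 0.0821). It was not called, since its fold of 1.48 missed the fold threshold. Neither of the 2 cilia genes, Cfap69 and Ofd1, was called. In the remaining group of 17 probes, XLOC_027457 was higher at 3d, Fam135a, Bmper and Itgbl1 were called lower at 7d than in sham, and XLOC_027457, Fam135a and Bmper were called lower in 7d against 3d.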

How the data were processed

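Per the file headers, the deposited intensity values come from Agilent Feature Extraction 11.0.1.1 and carry Cy5 signal, local background and marks for each spot. The deposited log2 table was made by the authors from the processed, dye-normalized signals with a constant per array. Matching these constants showed that they are the mean of 10 of 102 spike-in probes (largest difference 2.1e-11). Samples were grouped by title, although sham replicate 3, 7d replicate 3 and 7d replicate 2 have a different number in their descriptions.

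Median pixel intensities were corrected with normexp in limma 3.58.1 under R 4.3.3 (offset 50). Outlier spots were left out, spots of a probe averaged on the log2 scale and arrays shifted to the same mean of the 10 spike-in probes. Spots with a marked non-uniform local background were also left out, of the normexp fit and of the values, which was decided once the data had been seen. Both kinds of spot together left 74 values of 59 probes missing. The 9 arrays were fitted with lmFit and eBayes. Calls needed a fold above 1.5 and P under 0.05, as in the study's methods, unadjusted for 2 groups and adjusted by Benjamini-Hochberg over all 12422 probes for the 3-group F-test. The script was tested on simulated data.

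Names were given where fold change and P of the methylation level, recomputed from both channels of the deposited processed signals, matched 1 of 60 entries listed by the study to 1 probe (relative tolerance of the fold 1e-04). All 60 entries matched, and the unbound channel was used for nothing else. Named were, in each comparison, the 3 largest rises and falls among calls with groups apart and seen on at least 2 arrays of both groups, the 5 smallest F-test P values, the circRNAs of MeRIP-qPCR that could be identified and the listed circRNAs past the F-test. Others named in the text were chosen after their values were seen. Members and lists were chosen with earlier results of these data known. Nothing ties the samples to single animals, so that P values measure the spread between samples, and the number of arrays limits the precision. Alternatives are given in the closing section.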

Additional observations from a re-analysis of the deposited data

Results flagged for a closer look

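The 7d and 3d arrays differed for 16 of the probes picked by the naming rule, by the limma test of 7d against 3d with a fold above 1.5 and an adjusted P under 0.05. Row and time point cannot be told apart in this comparison, and 5 of the 16 were picked for the size of this same difference. The others were picked by the F-test on the same arrays or by a difference from sham that shares the 3d or 7d arrays. The passing of any of the 16 is therefore no separate support. Among named circRNAs the log2 difference between 7d and 3d was -2.32 for Fam135a, -1.86 for Bmper, -1.53 for Srebf2 and -1.12 for Glra2. Among unnamed probes it was -2.85 for ASCRP4011427, -2.84 for ASCRP4009892, -2.84 for ASCRP4005148, -2.75 for ASCRP4012340, -2.57 for ASCRP4009828, -2.44 for ASCRP4005614 and -2.05 for ASCRP4001381. It was -1.62 for ASCRP4009693, -1.20 for ASCRP4004748 and -0.87 for ASCRP4013068. The signal rose from 3d to 7d for ASCRP4012504 by 0.86 and for ASCRP4001539 by 0.66. Groups of 3 arrays are too small for a test of single outlying arrays.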

How the results depend on the processing

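The counts moved with the offset, the signal used, the test and single arrays, and the cause was not tested. The 3-group test called 528 probes without the offset, 2385 without background correction, 609 on the scanner's processed signal, 569 on the deposited table and 2 by the methods' one-way ANOVA with adjustment (413 unadjusted). For 3d against sham, 7d against sham and 7d against 3d, the counts were 2611, 1606 and 1339 without the offset, 1802, 1675 and 1159 on the processed signal, 1788, 1674 and 1142 on the deposited table, and 143, 86 and 177 with an adjusted P. Without background correction the first 2 were 1795 and 1326, with quantile normalization 267 and 176, and on the array median the second was 504. The methods' t-test called 212 in the first, and with adjustment 10, 0 and 0, where it called 234 and 237 in the last 2 unadjusted and limma 86 and 177 adjusted. With normexp fitted on all spots, an alternative chosen after seeing the data, 4 spots of 7d replicate 3 with a net signal down to -7445 moved the fit, 46 probes passed the 3-group test and 895 were called in 7d against sham.

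Leaving out 1 array gave 1 to 1076 probes in the 3-group test, 229 to 942 in 3d against sham, 187 to 475 in 7d against sham and 269 to 403 in 7d against 3d. The array median differed from sham by 0.15 to 0.22 at 3d and 0.10 to 0.23 at 7d. For 7d against 3d this difference ranged from -0.087 to 0.045, and its sign also turned on the processed signal (0.014), on the deposited table (0.034), with outlier spots kept (0.051) and with normexp on all spots (0.23). Filters, kept outlier spots, all spike-in probes and fits on 6 arrays stayed within 1.5 times of each total. Among higher calls alone, the 31 of 7d against sham became 62 with outlier spots kept and 19 with all spike-in probes, and the 8 of 7d against 3d became 5 with the latter. Same-numbered arrays correlated in their deviations at -0.54 to 0.64, above 0.1 in 3 of 9 pairs. With 3 arrays a group this cannot settle whether the numbers pair the samples. With the replicate number as a block the counts were 306, 446, 284 and 299. Of 689 alternatives for the probes picked by the naming rule, each in its own comparison, 0 reversed a direction, 7 lost a call, for ASCRP4006406, ASCRP4010157 and Itgbl1, and 8 gained one, for Clasp1 and Appl1. These calls use the unadjusted P. By the adjusted P of limma some probes did not hold with 1 array left out. Without sham replicate 2 that of Srebf2 at 3d was 0.103. Without 7d replicate 3 that of ASCRP4012340 in 7d against sham was 0.0849. Calls in 7d against 3d were also lost by the adjusted P without this array. It was then 0.086 for ASCRP4012504, 0.0948 for ASCRP4001539, 0.154 for ASCRP4011427 and 0.086 for ASCRP4009892. That of ASCRP4006633 at 3d stayed under 0.05 whichever array was left out. Signal at 2 to 2.43 times background limits what can be seen in dim probes.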
